A study of Mus musculus with 18 samples.

Results

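The lysosomal hydrolases and membrane proteins described here are 39 mouse genes listed by name, from Lamp1 and the cathepsins to the Niemann-Pick proteins, and each was located in the array's value table by its platform gene symbol. All 39 were measured, each by 1 row, among 24705 rows with 1 gene symbol in a table of 25428 rows. The cells were bone marrow-derived macrophages (BMDM), grown from mouse femur marrow in medium with 30 ng/ml M-CSF, the growth factor that drives macrophage differentiation. On day 4 the medium was exchanged for medium with 10% mouse plasma in place of fetal calf serum, and RNA was taken 48 h later, on day 6, for Affymetrix arrays of 1 channel.

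The 4 groups differed in the plasma donors, all C57BL/6J mice given a Western Diet for 8 weeks. WT plasma (4 arrays) came from Wildtype mice, ApoE plasma (5 arrays) from ApoE-KO mice, AS1 plasma (3 arrays) from ApoE-Stab1-KO mice and AS2 plasma (6 arrays) from ApoE-Stab2-KO mice. ApoE is the apolipoprotein that lets remnant lipoproteins be taken up from blood, and stabilin-1 and stabilin-2 are scavenger receptors of sinusoidal endothelium. The knockouts are thus those of the plasma donors, and the labels name no knockout in the macrophages themselves, nor do they give the genotype of the marrow donors. AS1 and AS2 mice lack ApoE as well, so ApoE plasma is the reference for the effect of a stabilin and WT plasma the reference for the loss of ApoE. The labels do not say whether replicates came from separate cultures, marrow donors or plasma donors, so the p-values measure the spread between these arrays only, which may be technical.

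Lysosomes are acidic organelles in which soluble hydrolases break down lipids, sugars and proteins delivered by endocytosis, phagocytosis and autophagy, while membrane proteins hold the limiting membrane together and export the products. In a macrophage that takes up lipoproteins, acid lipase (Lipa) splits cholesteryl esters, and NPC2 hands the free cholesterol to NPC1 in the membrane for export. Many of these genes share a promoter element called CLEAR, an E-box with the core CACGTG, which transcription factors of the MiT/TFE family (TFEB, TFE3 and MITF) bind when lysosomal stress or low mTORC1 activity releases them to the nucleus.

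The deposited values were normalised log2 intensities. They ran from 3.34 to 14.05 with a median of 4.37 in the 18 arrays, and group means of the 39 genes lay between 6.52 and 13.53, so that all of them stood above the 40th percentile of rows by mean level. The mean correlation of an array with the others of its group was 0.991 to 0.997 over all rows, lowest in ApoE replicate 2. Of the macrophage markers, Csf1r and Adgre1 (the M-CSF receptor and an adhesion receptor of mature macrophages) read 12.02 or more in every array, and Aif1 read 6.27 to 8.19. The T-cell gene Cd3e read 3.55 to 3.99, near the bottom of the scale. Neutrophil genes were not all at the bottom: Ngp read 9.5 to 12.33 and Ltf 8.38 to 11.54, while Ly6g read 3.67 to 4.79. These markers thus do not show the cultures to hold macrophages alone. Gpnmb, Lipa, Psap, Ctsb and Ctsd stood among the 29 brightest rows of each array, where neighbouring values lie 0.0518 apart at the median against 0.00195 between levels of 9 and 10. Small differences of these 5 genes are therefore read in coarse steps: Ctsb took 4 distinct values in the 17 arrays that share 1 set of values.

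Promoters of the genes, taken from RefSeq (build GRCm38.p6), are shown first because 10 of the 35 genes with an entry hold the E-box with its flanking T, TCACGTG, on either strand. The window was 250 bases before to 50 after the start. The same 7 letters occurred in 4.29% of 27025 mouse genes, against 28.6% of these 35. The shorter CACGTG, which TCACGTG contains, was in 31.4% of the 35 (11 genes, the added one being Ctsl) and in 8.09% of all genes. The longer palindrome with G before TCACGTG and AC after it was found in Cln3 alone of the 35 and in 0.37% of all genes. TCATGTG, an M-box form of the element that MITF is known to bind, was in 7 of the 35 genes (20%) and in 4.31% of all. Median GC content of the window was 56.3% both in the 35 and in the 18383 tested genes with a promoter entry. Such a match is a run of letters and shows no binding. Promoters of some of the genes with TCACGTG follow, chosen after their values were seen. They read 5′ to 3′ on the gene's strand and end at or before the base ahead of the start. Each TCACGTG or its reverse complement CACGTGA is in capitals.
Gla, chrX:134601006-134601255, minus strand, the 250 bases before the start: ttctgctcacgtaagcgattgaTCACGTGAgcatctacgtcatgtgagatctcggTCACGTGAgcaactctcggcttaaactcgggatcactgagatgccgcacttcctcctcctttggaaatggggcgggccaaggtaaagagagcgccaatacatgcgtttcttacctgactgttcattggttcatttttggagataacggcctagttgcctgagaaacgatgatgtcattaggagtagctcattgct
Lamp1, chr8:13159059-13159160, plus strand: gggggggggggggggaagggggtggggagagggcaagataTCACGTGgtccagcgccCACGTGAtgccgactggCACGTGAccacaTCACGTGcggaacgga
Mcoln1, chr8:3500407-3500518, plus strand: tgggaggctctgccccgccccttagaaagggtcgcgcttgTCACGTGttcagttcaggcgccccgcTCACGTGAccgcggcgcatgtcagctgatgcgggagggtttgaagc
Cln3, chr7:126583311-126583425, minus strand: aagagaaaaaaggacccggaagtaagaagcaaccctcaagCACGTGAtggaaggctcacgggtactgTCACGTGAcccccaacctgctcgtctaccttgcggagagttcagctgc
Gaa, chr11:119267782-119267868, plus strand: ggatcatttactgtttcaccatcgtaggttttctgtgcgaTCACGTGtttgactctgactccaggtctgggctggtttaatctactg
Sgsh, chr11:119355511-119355579, minus strand: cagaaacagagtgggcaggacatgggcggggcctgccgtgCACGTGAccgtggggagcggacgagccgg
Ctsa, chr2:164833720-164833772, plus strand: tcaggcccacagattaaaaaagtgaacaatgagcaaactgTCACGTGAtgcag
Counted on both strands, overlaps included, Lamp1 and Gla hold 4 such matches before the start, Cln3 and Mcoln1 hold 3, Ctsa holds 2 and Gaa and Sgsh hold 1. The matches of Gla span positions -228 to -188 from the start, and those of Ctsa shown here span -13 to -6. Arsa, Glb1 and Ctsd are the other genes with a match.

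**Figure D1:**
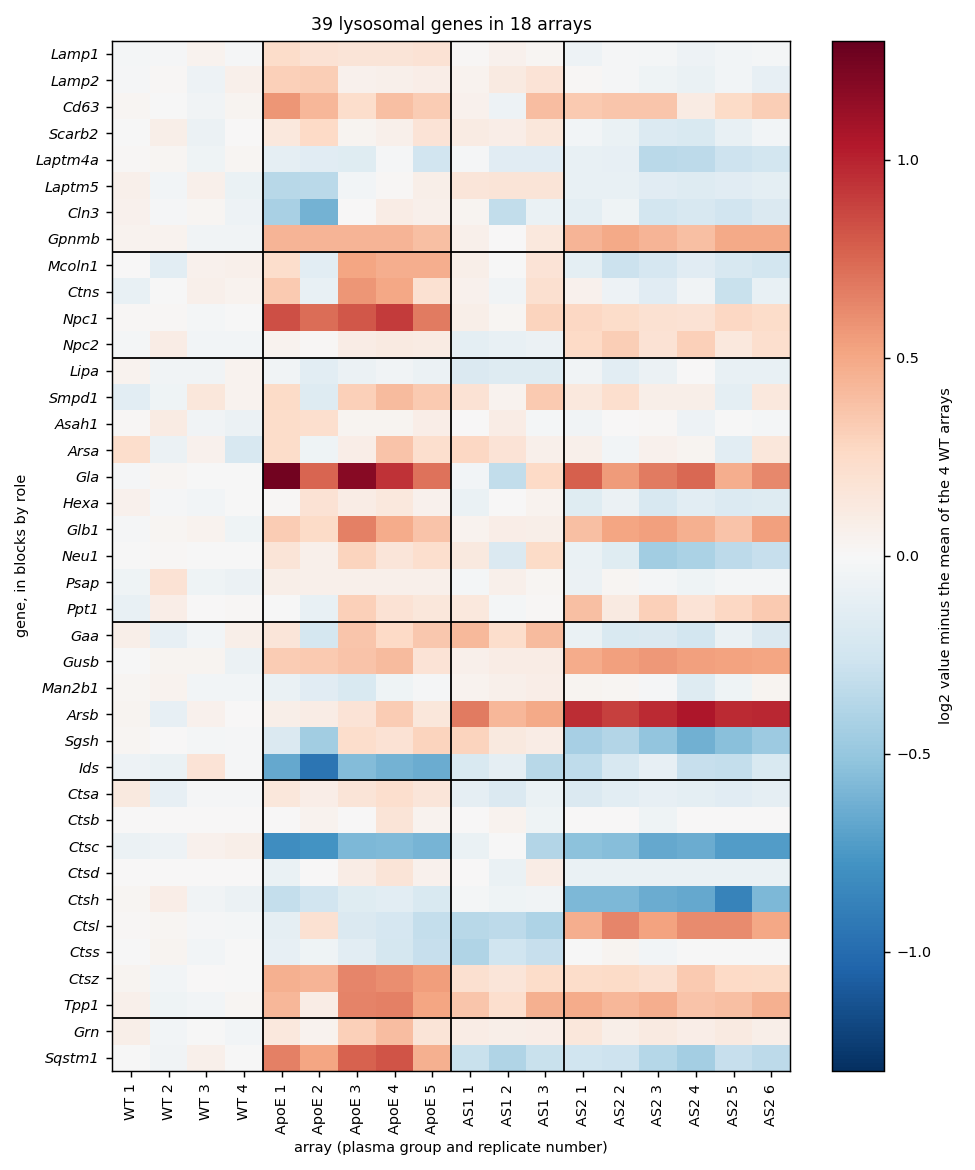
Difference of each of the 39 genes from its own mean over the WT arrays, on the log2 scale, in each of the 18 arrays (columns, by plasma group), with genes in rows by role. Npc1, Gla and Sqstm1 stand above the WT mean in all 5 ApoE arrays, and Sqstm1 stands below it in all AS1 and AS2 arrays.

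ApoE plasma was compared with WT plasma to ask what the plasma of hyperlipidaemic ApoE-deficient mice does to the lysosomal genes. 13 of the 39 genes rose, 4 fell and 22 did not pass the test (limma, Benjamini-Hochberg adjusted over 24705 rows, threshold 0.05). Cholesterol exporter Npc1, the glycolipid hydrolase Gla, the autophagy receptor Sqstm1 and cathepsin Z were among those that rose, while cathepsins C, H and S and iduronate sulfatase fell. The shares were 33.3% higher and 10.3% lower, beside 8.54% higher and 8.36% lower of all rows tested. Among the 14823 rows above the 40th percentile of mean level, where all 39 genes lie, the shares called were 14.5% and 14.2%. The median change of the 39 genes was 0.16 and that of all rows -0.0036. No gene of the 39 reached a 2-fold change, which 335 of all rows did.

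By role, 3 of 8 membrane and trafficking proteins rose (Lamp1, Cd63 and Gpnmb), 2 of 4 channels and transporters (Npc1 and Mcoln1), and 2 of 10 enzymes of lipid and sphingolipid breakdown (Gla and Glb1). Of 6 enzymes of glycogen, glycoprotein and glycosaminoglycan breakdown, Gusb rose and Ids fell. The 9 proteases divided evenly, with Ctsa, Ctsz and Tpp1 higher, Ctsc, Ctsh and Ctss lower and 3 not past the threshold. Progranulin (Grn), a lysosomal chaperone and growth factor precursor, and Sqstm1 both rose. Among the 14823 rows of higher mean level described above, 14.5% rose and 14.2% fell. Each role holds few genes, and the counts of the 10 lipid enzymes and of the 6 other enzymes are near these shares. No role was tested as a set.

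Npc1, the membrane protein through which cholesterol leaves the lysosome, read 10.59, 10.60, 10.55 and 10.58 in the 4 WT arrays. With ApoE plasma it read 11.42, 11.30, 11.38, 11.49 and 11.26. Every ApoE array lay above every WT array. Npc1 rose by 0.79 ± 0.052 (SE) on the log2 scale, a 1.73-fold change with an adjusted p of 1.13e-08 in limma. Its soluble partner Npc2 changed by 0.08, which did not pass (adjusted p = 0.298).

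Gla, which removes the terminal galactose of globotriaosylceramide and whose promoter is printed above, read 9.79, 9.83, 9.79 and 9.79 with WT plasma. With ApoE plasma it read 11.05, 10.56, 10.99, 10.74 and 10.50. The WT arrays lay within a few hundredths of each other, the ApoE arrays were spread more widely, and the groups did not overlap. Gla rose by 0.97 ± 0.12, or 1.95-fold (adjusted p = 9.42e-06, limma), the largest rise of the 39. Beta-galactosidase, encoded by Glb1, rose by 0.42, and the carboxypeptidase cathepsin A, which protects it from degradation, by 0.16. Without WT replicate 2 the Ctsa change was 0.12 and no longer passed (adjusted p = 0.0645).

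Sqstm1 encodes p62, which ties ubiquitinated cargo to autophagosomes. It read 10.72, 10.69, 10.80 and 10.72 with WT plasma and 11.38, 11.25, 11.50, 11.55 and 11.20 with ApoE plasma, without overlap. It rose by 0.64 ± 0.065 (adjusted p = 1.3e-06, limma). Ctsz, a carboxypeptidase of the papain family, read 11.95, 11.87, 11.92 and 11.91 with WT plasma. With ApoE plasma it read 12.38, 12.36, 12.55, 12.51 and 12.45, again apart from WT in every array. Its rise was 0.54 ± 0.042 (adjusted p = 7.32e-08). Gpnmb is a transmembrane glycoprotein of late endosomes and lysosomes that marks lipid-laden macrophages. It read 12.77, 12.77, 12.68 and 12.68 with WT plasma and 13.16, 13.16, 13.16, 13.16 and 13.11 with ApoE plasma, and rose by 0.43 ± 0.036 (adjusted p = 1.74e-07). The 5 ApoE arrays lay apart from WT, on 2 neighbouring steps of the bright end of the scale.

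The genes that fell stood apart from WT as well. Ctsc encodes dipeptidyl peptidase I, which activates the serine proteases of neutrophil and mast cell granules, and it read 10.86, 10.87, 10.99 and 11.01 with WT plasma. With ApoE plasma it read 10.13, 10.15, 10.35, 10.36 and 10.33, and it fell by 0.67 on the log2 scale (SE 0.074, adjusted p = 3.75e-06, limma). Ids, the sulfatase that starts the breakdown of heparan and dermatan sulfate, read 8.77, 8.75, 9.01 and 8.82 with WT plasma and 8.17, 7.88, 8.27, 8.22 and 8.19 with ApoE plasma. ApoE replicate 2 was the lowest of all 18 arrays for Ids. It fell by 0.69 (SE 0.078, adjusted p = 4.56e-06).

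The aminopeptidase cathepsin H read 10.74, 10.80, 10.67 and 10.64 with WT plasma and 10.40, 10.47, 10.55, 10.58 and 10.52 with ApoE plasma. The groups were narrowly apart, and Ctsh fell by 0.21 (adjusted p = 0.0145, limma). Without WT replicate 2, its highest array, it fell by 0.18 with an adjusted p of 0.0554. Cathepsin S, which trims the invariant chain of MHC class II, read 13.03, 13.06, 12.99 and 13.03 with WT plasma and 12.92, 12.97, 12.89, 12.80 and 12.73 with ApoE plasma. It fell by 0.16 (adjusted p = 0.0158), with the groups apart by a few hundredths.

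**Figure D2:**
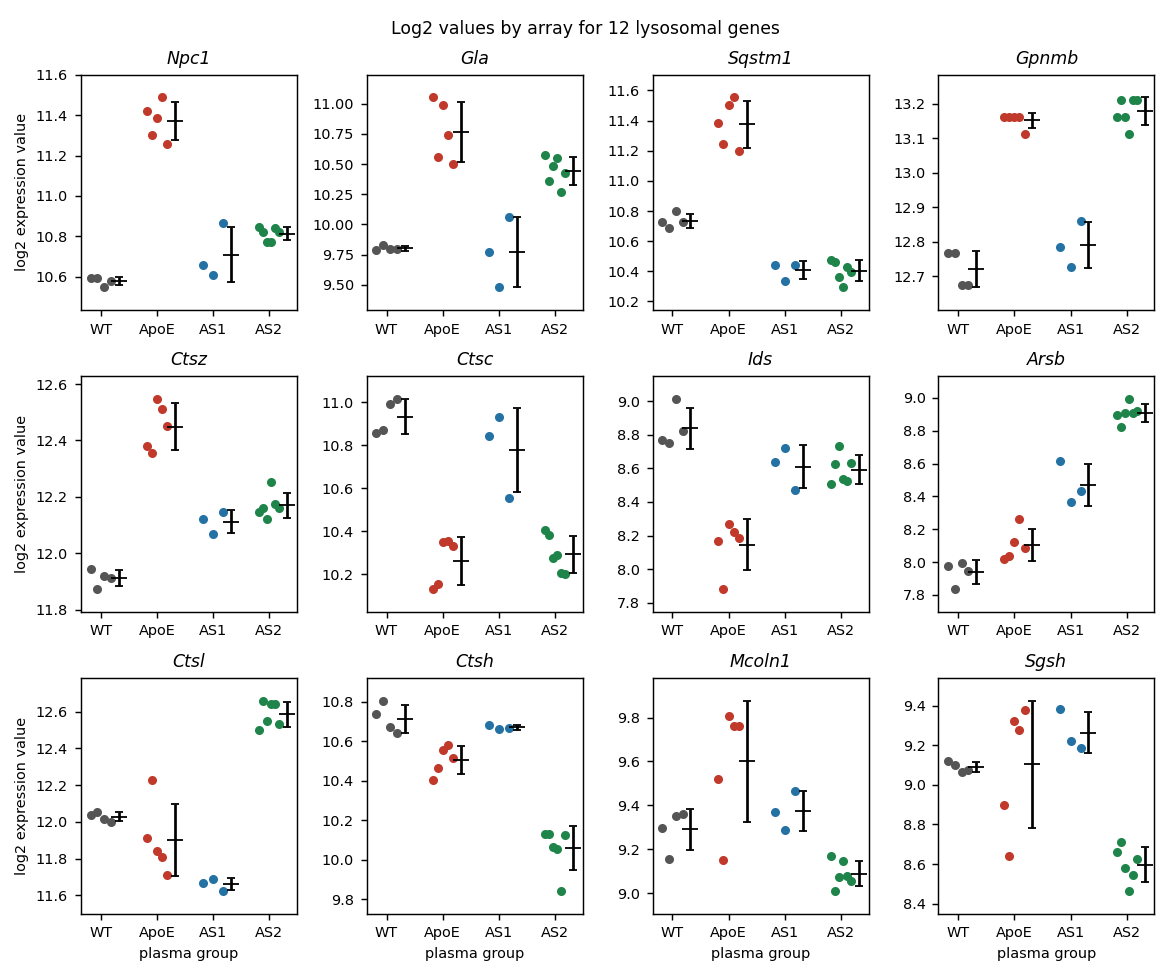
Normalised log2 intensity of 12 of the genes in each array (points) by plasma group, with the group mean and its SD; the 12 were chosen after their values were seen. Each panel has its own vertical range, which does not start at 0, and levels are not comparable between panels. Npc1, Gla and Sqstm1 peak in the ApoE group, Arsb is highest in the AS2 group, and Ctsl and Ctsh move apart between AS1 and AS2.

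Within the ApoE group, replicates 1 and 2 stood apart from replicates 3 to 5 for Laptm5, a lysosomal membrane protein of blood cells (12.55, 12.56, 12.87, 12.92 and 12.99), and for Cln3, the membrane protein lost in a childhood neuronal lipofuscinosis (8.81, 8.62, 9.23, 9.33 and 9.30). Neither gene passed in ApoE against WT. The calcium channel Mcoln1 rose by 0.31 and passed narrowly (adjusted p = 0.0461, limma), and it lost that call without any 1 of WT replicates 1 to 4 or ApoE replicates 1, 3, 4 and 5 (changes of 0.26 to 0.33, adjusted p 0.0555 to 0.135). Without ApoE replicate 2, which read 9.15, it kept the call. Without ApoE replicates 2 and 5, the array that correlated least with its group and the one that came nearest to an array of another group, 16 genes rose and 4 fell.

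Macrophage markers moved in the same arrays. Of 8 measured, 6 fell and 1 rose with ApoE plasma, and their summed level (log2) was 14.69 to 14.71 in the WT arrays and 14.36 to 14.50 in the ApoE arrays. The part of these shifts in the lysosomal changes was not tested. In RNA from whole cultures, fewer cells of a type and less RNA per cell cannot be told apart.

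Of the 10 genes with TCACGTG in the promoter, 5 rose with ApoE plasma (Lamp1, Mcoln1, Gla, Glb1 and Ctsa), and of the 25 without it 7 rose and 3 fell. Among all tested genes with a promoter entry, 17.6% of the 935 with the motif and 8.53% of the 17448 without it rose. Among the rows above the 40th percentile those shares were 22.5% and 13.7%. At an unadjusted limma p under 0.05, 5 of the 10 rose and 0 fell, and of the 25 without the motif 14 rose and 6 fell. Median changes were 0.17 with the motif and 0.14 without it. These are counts and medians, and no test was made of them.

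AS1 plasma was compared with ApoE plasma to ask what the added loss of stabilin-1 in the donors changes. 5 genes rose and 11 fell, and Sqstm1, Npc1, Gpnmb and Gla, all raised by ApoE plasma against WT, led the falls. The ApoE arrays are shared by both comparisons, so the reverse sign is not independent. The shares were 12.8% higher and 28.2% lower, beside 7.74% higher and 8.8% lower of all rows, or 13.8% and 15.4% of rows with low means left out. The median change was -0.098 over the 39 genes and 0.0019 over all rows.

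Sqstm1 read 10.44, 10.34 and 10.44 in the 3 AS1 arrays, all below the ApoE range given above. It fell by 0.97 (SE 0.071, 1.96-fold, adjusted p = 3.73e-07, limma). Npc1 read 10.66, 10.61 and 10.87 and fell by 0.66 (SE 0.057, adjusted p = 1.21e-06), with replicate 3 the nearest to the ApoE arrays but still below them. Gpnmb read 12.79, 12.73 and 12.86 and fell by 0.36 (SE 0.04, adjusted p = 8e-06). The fall of Gla was the largest of the 39 genes in any of the 6 comparisons: it read 9.77, 9.48 and 10.06, with replicate 3 highest, and fell by 0.998 (SE 0.13, 1.997-fold, adjusted p = 3.09e-05). All 4 genes were clear of the ApoE arrays.

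Other falls were smaller. The acid beta-galactosidase gene Glb1 fell by 0.35, beta-glucuronidase (Gusb) by 0.24, Ctsz by 0.34, Ctsa by 0.29, the abundant membrane glycoprotein Lamp1 by 0.16, Npc2 by 0.18 and Ctss by 0.15. The call of Npc2 was lost without AS1 replicate 1 (change -0.16, adjusted p = 0.0651). That of Ctss was lost without ApoE replicates 1, 2 or 3 or AS1 replicates 1 or 3 (changes -0.11 to -0.16, adjusted p 0.0822 to 0.237).

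The 5 rises were of Ctsc, Arsb, Ids, Laptm5 and the alpha-mannosidase Man2b1, which trims mannose from glycoproteins. Ctsc read 10.84, 10.93 and 10.56, above every ApoE array, and rose by 0.51 ± 0.081 (adjusted p = 0.00021, limma). Ids read 8.64, 8.72 and 8.47 and rose by 0.46 ± 0.085 (adjusted p = 0.000787), also without overlap. Arsb, the sulfatase that removes sulfate from dermatan and chondroitin sulfate, read 8.02, 8.04, 8.12, 8.26 and 8.09 with ApoE plasma. With AS1 plasma it read 8.61, 8.37 and 8.43, above the ApoE arrays, and it rose by 0.37 ± 0.063 (adjusted p = 0.000462). Laptm5 read 13.06, 13.08 and 13.08, above all 5 ApoE arrays, and rose by 0.30 ± 0.083 (adjusted p = 0.0187).

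The calls of Laptm5 and Man2b1 did not hold when any 1 AS1 array was left out. Without AS1 replicate 1, 2 or 3, Laptm5 changed by 0.29 to 0.30 (adjusted p 0.0552 to 0.0593) and Man2b1 by 0.16 to 0.18 (adjusted p 0.0644 to 0.101), which left 3 rises. Without ApoE replicate 2 or 3 Man2b1 was lost as well (changes of 0.16 and 0.14, adjusted p 0.0526 and 0.0658). Without ApoE replicates 2 and 5, 5 genes rose and 16 fell.

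Neutrophil granule genes, among them the serine proteases that Ctsc activates, were higher in the AS1 arrays. All 13 measured neutrophil markers rose against ApoE plasma, with Mpo (myeloperoxidase) up by 1.79, Elane (elastase) by 1.81 and Prtn3 (proteinase 3) by 2.27. Their summed level was 13.93 to 14.19 in the AS1 arrays and 12.10 to 13.26 in the ApoE arrays. 6 of 9 markers of basophils, eosinophils and mast cells rose, as did 6 of 8 macrophage markers. The part of these markers in the lysosomal changes, Ctsc included, was not tested.

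Of the 10 genes with TCACGTG, 4 fell with AS1 plasma against ApoE plasma (Lamp1, Gla, Glb1 and Ctsa), and 0 rose (limma, also 0 at an unadjusted p under 0.05). Of the 25 without it, 5 rose and 6 fell. At an unadjusted limma p under 0.05, 4 of the 10 fell, and of the 25 without the motif 5 rose and 10 fell. Median changes were -0.10 with the motif and -0.11 without it. Among all tested genes 17.1% with the motif and 8.8% without it fell.

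**Figure D3:**
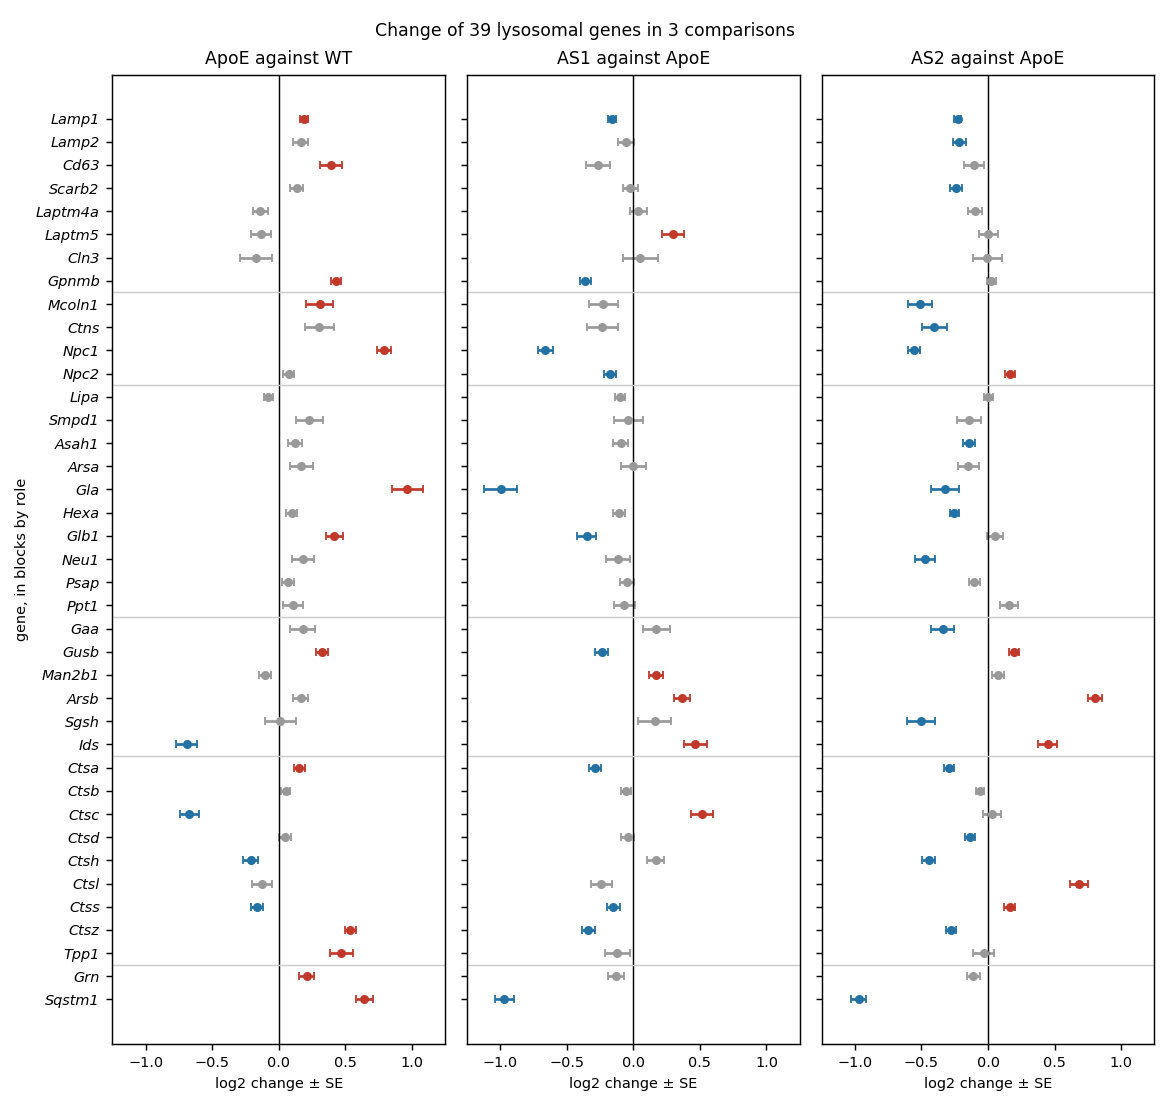
Log2 change ± SE for each of the 39 genes for ApoE plasma against WT and for AS1 and AS2 plasma each against ApoE. Changes past an adjusted p of 0.05 (limma) are red where higher and blue where lower, and the others are grey. Sqstm1 and Npc1 lie far to the left in both comparisons with ApoE plasma as reference, and Arsb and Ctsl lie far to the right in AS2 against ApoE.

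AS2 plasma was compared with ApoE plasma to ask what the added loss of stabilin-2 in the donors changes. 17 of the 39 genes fell and 6 rose, the largest number of falls among the 6 comparisons. Sqstm1, Npc1, Ctsh and Lamp1 fell with the smallest p-values, together with Mcoln1, Ctns, Sgsh, Neu1 and Gaa, and the rises were led by Arsb and cathepsin L. The shares were 15.4% higher and 43.6% lower, beside 7.59% higher and 8.02% lower of all rows, or 13.1% and 13.9% of rows with low means left out. The median change was -0.11 over the 39 genes and -0.0024 over all rows.

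By role, 3 of 8 membrane proteins fell (Lamp1, Lamp2 and Scarb2), 3 of 4 channels and transporters (Mcoln1, Ctns and Npc1) while Npc2 rose, and 4 of 10 lipid enzymes fell (Asah1, Gla, Hexa and Neu1). In glycogen and glycosaminoglycan breakdown Gaa and Sgsh fell while Gusb, Arsb and Ids rose. Of 9 proteases, Ctsa, Ctsd, Ctsh and Ctsz fell and Ctsl and Ctss rose. Among all rows with low means left out, 13.1% rose and 13.9% fell. Each role holds few genes, and no role was tested against these shares.

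Sqstm1 read 10.29 at the lowest, 10.41 at the median and 10.48 at the highest in the 6 AS2 arrays, well below the ApoE arrays. It fell by 0.97 (SE 0.059, 1.96-fold, adjusted p = 2.91e-09, limma). Npc1 read 10.77 at the lowest, 10.82 at the median and 10.85 at the highest and fell by 0.56 (SE 0.047, adjusted p = 1.58e-07). Both genes thus lay below all 5 ApoE arrays in each of the 6 AS2 arrays. Ctsh read 9.84 at the lowest, 10.10 at the median and 10.13 at the highest, the lowest being replicate 5, and fell by 0.45 (SE 0.051, adjusted p = 5.1e-06). Lamp1 had read 12.73, 12.68, 12.66, 12.66 and 12.68 with ApoE plasma. It read 12.43 at the lowest, 12.46 at the median and 12.48 at the highest with AS2 plasma, and fell by 0.23 (SE 0.026, adjusted p = 5.74e-06), a small shift between 2 narrow groups that did not overlap.

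Arsb read 8.82 at the lowest, 8.91 at the median and 8.99 at the highest with AS2 plasma, above all other 12 arrays. It rose by 0.80 ± 0.052 (1.75-fold, adjusted p = 6.8e-09, limma). Cathepsin L, a broadly acting cysteine endopeptidase, read 11.91, 12.23, 11.84, 11.81 and 11.71 with ApoE plasma, replicate 2 being the highest. With AS2 plasma it read 12.50 at the lowest, 12.59 at the median and 12.66 at the highest, again above every other array, and rose by 0.69 ± 0.067 (1.61-fold, adjusted p = 7.46e-07). Ids read 8.51 at the lowest, 8.58 at the median and 8.73 at the highest and rose by 0.45 ± 0.07 (adjusted p = 0.000157), above the ApoE arrays and near the AS1 arrays. Gusb, which cleaves glucuronic acid from glycosaminoglycans, read 10.98, 10.996, 11.02, 11.07 and 10.83 with ApoE plasma. With AS2 plasma it read 11.13 at the lowest, 11.18 at the median and 11.21 at the highest, narrowly above, and rose by 0.20 ± 0.038 (adjusted p = 0.00111).

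Other enzymes and transporters fell as well. The cystine exporter Ctns fell by 0.40, sialidase Neu1 by 0.47, the glycogen-splitting Gaa by 0.34, the ganglioside hydrolase subunit Hexa by 0.25 and Scarb2, which carries glucocerebrosidase to the lysosome, by 0.24. Mcoln1 and Sgsh, taken up here because both hold the motif and after their values were seen, are given by array. Mcoln1 read 9.52, 9.15, 9.81, 9.76 and 9.76 with ApoE plasma and 9.01 at the lowest, 9.08 at the median and 9.17 at the highest with AS2 plasma. Replicate 2 was the lowest ApoE array and fell within the AS2 range, so these groups overlapped, and Mcoln1 fell by 0.51 (SE 0.092, adjusted p = 0.000576, limma). Sgsh, the sulfamidase of heparan sulfate, read 8.90, 8.64, 9.32, 9.28 and 9.38 with ApoE plasma and 8.46 at the lowest, 8.60 at the median and 8.71 at the highest with AS2 plasma. The AS2 arrays overlapped with ApoE replicate 2 and lay below the other 4, and Sgsh fell by 0.51 (SE 0.1, adjusted p = 0.00194).

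The calls of 3 further falls were narrow. Acid ceramidase (Asah1) fell by 0.14 (adjusted p = 0.0398, limma), and the call was lost without any 1 AS2 array or without ApoE replicate 1 or 2 (changes -0.11 to -0.15, adjusted p 0.0524 to 0.124). Ctsd, the aspartic protease, fell by 0.14 (adjusted p = 0.0307), lost without any 1 AS2 array or ApoE replicate 3, 4 or 5 (changes -0.11 to -0.14, adjusted p 0.0501 to 0.0969). Gla fell by 0.33 (adjusted p = 0.0427), lost without ApoE replicate 1, 3 or 4 or AS2 replicate 2, 3, 5 or 6 (changes -0.26 to -0.33, adjusted p 0.0629 to 0.133). Without ApoE replicates 2 and 5, 6 genes rose and 16 fell.

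Of the 10 genes with TCACGTG, 7 fell with AS2 plasma (Lamp1, Mcoln1, Gla, Gaa, Sgsh, Ctsa and Ctsd) and 0 rose (limma, also 0 at an unadjusted p under 0.05). Of the 25 without it, 6 rose and 7 fell, or 7 and 9 at an unadjusted limma p under 0.05. Median changes were -0.26 with the motif and -0.032 without it. Among all tested genes 15.3% with the motif and 8.13% without it fell, or 19.5% and 13.1% above the 40th percentile of level. In the other comparisons the 10 genes did not stand out from the 25 by count. In AS2 against WT, 2 of the 10 rose and 2 fell, beside 9 and 6 of the 25. In AS2 against AS1, 2 rose and 2 fell, beside 7 and 5. In AS1 against WT, 1 rose and 0 fell, beside 3 and 4. Over all tested genes, those with the motif were called more often in these comparisons as well. In AS2 against WT 13.7% with the motif and 8.81% without it rose, and 13.5% and 9.56% fell. In AS2 against AS1 19% and 11.7% rose, and 14.1% and 10.7% fell. In AS1 against WT 6.63% and 4.88% rose, and 7.17% and 4.61% fell. Above the 40th percentile of level these gaps were smaller (23.8% and 18.7% higher in AS2 against AS1). The comparison of motif classes was not tested.

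**Figure D4:**
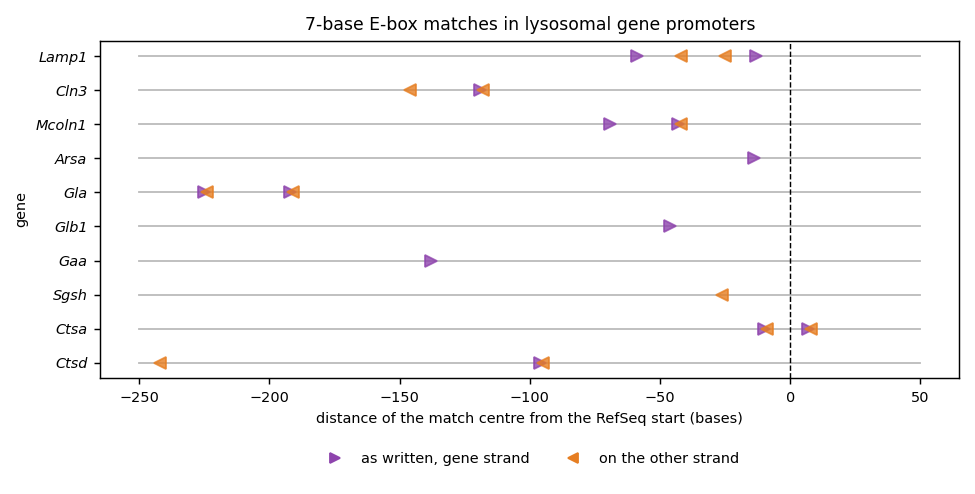
Positions of TCACGTG from 250 bases before to 50 after the start (dashed line) in the 10 genes that hold it, of 35 with a promoter entry. Arrowheads mark the centre of each match. They point right where it reads on the gene's strand and left where it reads on the other strand.

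Markers of other cells moved with AS2 plasma too. All 5 megakaryocyte and platelet markers fell against ApoE plasma, and their summed level was 8.92 to 9.32 in the AS2 arrays and 10.12 to 11.04 in the ApoE arrays. Of 13 neutrophil markers 6 fell, with summed levels of 11.29 to 12.05 against 12.10 to 13.26. Of 8 osteoclast markers 3 rose: Dcstamp, needed for cell fusion, by 2.43, the acid phosphatase Acp5 by 2.33 and the lysosomal collagenase cathepsin K (Ctsk) by 1.18. The other 5 did not pass, and over the 8 the median change was 0.17 and the lowest -0.76. The part of all these markers in the lysosomal changes was not tested.

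AS1 and AS2 plasma were also compared with WT plasma, which asks how far the levels lay from those of mice with all 3 genes. With AS1 plasma 4 genes rose and 4 fell (10.3% each, beside 4.84% higher and 4.64% lower of all rows, and 8.25% and 8.42% of rows above the 40th percentile of level, near the share of the 39 genes). Arsb and Ctsz, with Gaa and Tpp1, were higher, and Ctss and Sqstm1, with Lipa and Ctsl, were lower. Arsb had read 7.98, 7.84, 7.997 and 7.95 in the WT arrays and was higher by 0.53 ± 0.066 with AS1 plasma (adjusted p = 2.99e-05, limma). Ctsz read 12.12, 12.07 and 12.15 with AS1 plasma, above WT and below ApoE arrays, and was 0.20 ± 0.048 above WT (adjusted p = 0.0112). Ctss read 12.64, 12.77 and 12.73 and fell by 0.31 (SE 0.051, adjusted p = 0.000491). Sqstm1 fell by 0.33 (SE 0.074, adjusted p = 0.00784). In these 4 genes no AS1 array overlapped with WT.

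Npc1, Gla and Gpnmb did not pass between AS1 and WT plasma. Their changes were 0.13 (95% interval 0.01 to 0.26), -0.03 (-0.31 to 0.25) and 0.07 (-0.02 to 0.16). 3 of the 4 rises depended on single arrays. Gaa was lost without any 1 WT array or AS1 replicate 1 or 3 (changes of 0.32 to 0.38, adjusted p 0.0629 to 0.17), Tpp1 without WT replicate 2, 3 or 4 or AS1 replicate 1 or 3 (0.29 to 0.36, adjusted p 0.0581 to 0.162) and Ctsz without AS1 replicate 3 (0.18, adjusted p = 0.0619). The rises thereby numbered 2 without WT replicate 2, 3 or 4 or AS1 replicate 1, and 1 without AS1 replicate 3. 12 of 13 neutrophil markers rose in AS1 against WT as well, and their part was not tested.

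With AS2 plasma against WT plasma 12 genes rose and 9 fell (30.8% and 23.1%, beside 8.65% higher and 9.2% lower of all rows, and 14.4% and 15.8% of rows above the 40th percentile of level). Arsb was 0.97 ± 0.055 higher (1.96-fold, adjusted p = 7.16e-10, limma), with every AS2 array above every WT array. Gpnmb read 13.11 at the lowest, 13.19 at the median and 13.21 at the highest and was 0.46 ± 0.035 higher (adjusted p = 3.1e-08). Its difference from ApoE plasma was 0.03 (95% interval -0.04 to 0.10). Ctsh fell by 0.66 (SE 0.054, adjusted p = 8.76e-08). Ctsc read 10.20 at the lowest, 10.28 at the median and 10.40 at the highest and fell by 0.64 (SE 0.071, adjusted p = 3.17e-06). Neither overlapped with WT. The other rises were of Cd63, Npc1, Npc2, Gla, Glb1, Ppt1, Gusb, Ctsl, Ctsz and Tpp1 and lay between 0.23 (Npc1) and 0.64 (Gla). The other falls were of Laptm4a, Hexa, Neu1, Sgsh, Ids, Ctsa and Sqstm1 and lay between -0.14 (Ctsa) and -0.49 (Sgsh). Cd63 lost its call without WT replicate 3 (0.27, adjusted p = 0.0513), Ppt1 without WT replicate 1 (0.23, adjusted p = 0.0567), Ctsa without WT replicate 1 (-0.096, adjusted p = 0.119) or AS2 replicate 1 (-0.13, adjusted p = 0.0537), and Ids without WT replicate 3 or 4 or AS2 replicate 1, 4 or 5 (-0.19 to -0.25, adjusted p 0.059 to 0.133). Of 8 macrophage markers 5 fell and of 8 osteoclast markers 4 rose in the same comparison, and their part was not tested.

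AS2 plasma was compared with AS1 plasma directly to ask where loss of either stabilin in the donors differs. 9 genes were higher and 8 lower with AS2 plasma (23.1% and 20.5%, beside 11.5% higher and 10.6% lower of all rows, and 19.7% and 18.2% of rows above the 40th percentile of level, shares near those of the 39 genes). The largest difference was in cathepsin L, which read 11.67, 11.69 and 11.62 with AS1 plasma, below all WT arrays, and was 0.93 ± 0.078 higher with AS2 plasma (1.90-fold, adjusted p = 1.53e-07, limma). Gpnmb was 0.39 ± 0.038 higher (adjusted p = 8.87e-07). Cathepsin H read 10.68, 10.66 and 10.67 with AS1 plasma, a level within the WT range, and was lower with AS2 plasma (difference -0.61 ± 0.06, adjusted p = 7.47e-07). Ctsc was lower as well (difference -0.48 ± 0.078, adjusted p = 0.00016). None of the 4 genes overlapped between the groups.

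Npc2, Gla, Glb1, Ppt1, Gusb, Arsb and Ctss were the other genes higher with AS2 than with AS1 plasma, by 0.23 (Ppt1) to 0.67 (Gla). Scarb2, Laptm5, Hexa, Neu1, Gaa and Sgsh were lower, with differences from -0.14 (Hexa) to -0.67 (Sgsh). Sqstm1 was nearly equal, with a difference of -0.003 (95% interval -0.15 to 0.14), and that of Npc1 was 0.10 (-0.01 to 0.22). Without AS1 replicate 3 the difference of Npc1 was 0.18 and passed (adjusted p = 0.0221). Ppt1 lost its call without AS1 replicate 2 or 3 or AS2 replicate 1, 3, 5 or 6 (0.19 to 0.23, adjusted p 0.071 to 0.181), Hexa without AS1 replicate 2 or 3 (-0.13 and -0.12, adjusted p 0.0801 and 0.143) and Neu1 without AS1 replicate 3 (-0.26, adjusted p = 0.0638). All 13 neutrophil markers and all 5 megakaryocyte markers were lower with AS2 plasma, and their part was not tested.

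3 pairs of comparisons share no array, so their calls may be set against each other. ApoE against WT and AS2 against AS1 had 7 of the 39 genes in common, 41.2% of the calls of each, and 6 of them had the same sign (Gpnmb, Gla, Glb1 and Gusb higher, Ctsc and Ctsh lower) while Ctss differed. Over all rows the calls in common were 54.5% and 41.6% of the calls of each, and 72% of them had the same sign. AS1 against WT and AS2 against ApoE had 6 in common (75% and 26.1% of their calls), with Arsb and Sqstm1 alike and Gaa, Ctsl, Ctss and Ctsz opposed. Over all rows these shares were 51.1% and 31%, and 32.7% of the calls in common had the same sign. AS2 against WT and AS1 against ApoE had 12 in common (57.1% and 75%), with Arsb, Ctsa and Sqstm1 alike and the other 9 opposed. Over all rows the shares were 46.3% and 49.9%, and 14% had the same sign.

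**Figure D5:**
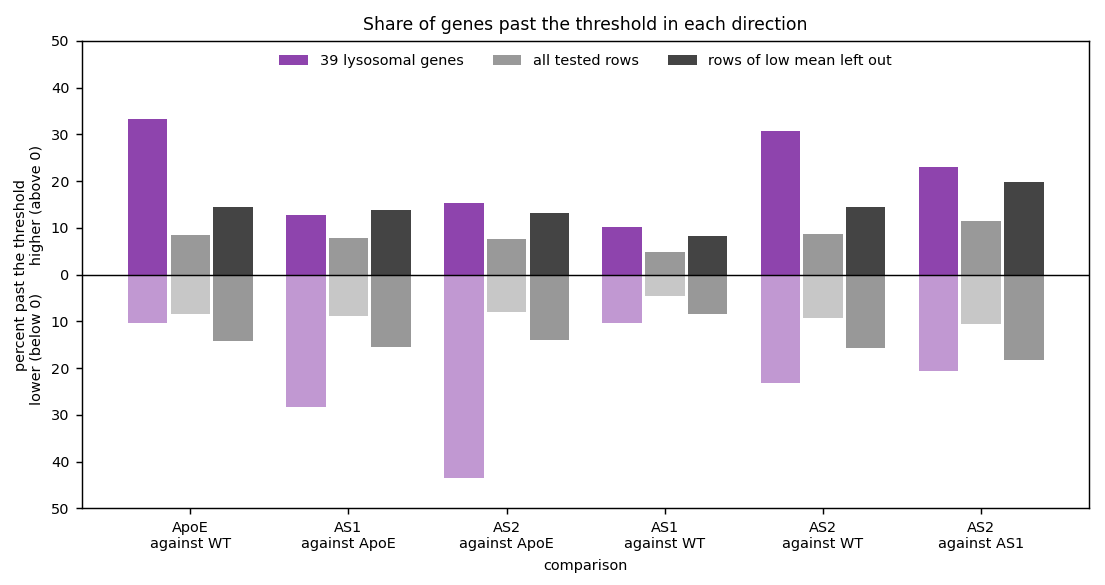
Percent of the 39 genes called higher and lower (adjusted p under 0.05) in each of the 6 comparisons, beside the percent of all 24705 rows; bars start at 0. In AS2 against ApoE 43.6% of the genes were lower against 8.02% of rows, and in AS1 against WT the shares were 10.3% in either direction.

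5 of the 39 genes passed in none of the 6 comparisons: Cln3, acid sphingomyelinase (Smpd1), arylsulfatase A (Arsa), prosaposin (Psap) and cathepsin B. Before adjustment, 2 of their changes had a limma p under 0.05, Smpd1 in ApoE against WT (0.23, adjusted p = 0.158) and Psap in AS2 against ApoE (-0.10, adjusted p = 0.126). Ctsb, an abundant cysteine protease at the bright end of the scale, read 13.47 in all 4 WT arrays and 13.47 to 13.65 in the ApoE arrays, a change of 0.05 (95% interval -0.03 to 0.13). Psap, the precursor of the saposins that help sphingolipid hydrolases reach their substrates, changed by 0.07 in ApoE against WT (-0.03 to 0.17). Without WT replicate 2, its highest array, Psap changed by 0.13 and passed (adjusted p = 0.00959). Lipa, the acid lipase at the head of lysosomal cholesterol release, passed in AS1 against WT alone, where it fell by 0.18 (adjusted p = 0.00941). In ApoE against WT Lipa changed by -0.08 (95% interval -0.15 to -0.0019), which did not pass after adjustment. The intervals in ApoE against WT were 0.01 to 0.45 for Smpd1 and -0.43 to 0.08 for Cln3. Without ApoE replicate 2, its lowest array, Smpd1 changed by 0.33 and passed in ApoE against WT (adjusted p = 0.00695), and it changed by -0.24 and passed in AS2 against ApoE (adjusted p = 0.0284). With array weights Smpd1 passed in ApoE against WT as well (0.30, adjusted p = 0.0257).

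Other genes of the lysosome, sorted into lists that hold none of the 39, moved in both directions. In ApoE against WT 8.54% of all rows were higher and 8.36% lower, or 14.5% and 14.2% with low means left out. For AS1 against ApoE these shares were 7.74% and 8.8%, or 13.8% and 15.4%. For AS2 against ApoE they were 7.59% and 8.02%, or 13.1% and 13.9%. Counts of some lists here and below are near these shares, and no list was tested as a set. Of 27 other hydrolases measured, 11 rose and 8 fell with ApoE against WT plasma, with a median change of -0.0061. Naglu, which acts on heparan sulfate, rose by 0.98 and the hyaluronidase Hyal1 by 1.70. With AS1 against ApoE plasma 7 rose and 9 fell, led by the dipeptidyl peptidase Dpp7 (-0.83) and the phospholipase B-like Plbd1 (1.49). With AS2 against ApoE plasma 7 rose and 5 fell, led by Acp5 and the fucosidase Fuca1 (0.66). Acp5, also an osteoclast marker, fell by 0.35 with ApoE against WT plasma.

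Among 29 other lysosomal membrane proteins, 15 fell and 2 rose with AS2 against ApoE plasma, with a median of -0.20. The peptide and histidine transporter Slc15a3 (-1.26) and the transporter Mfsd1 (-0.32) had the smallest p-values. In ApoE against WT 8 rose and 7 fell, and the channel Mcoln2 rose by 1.18 and Mfsd1 by 0.54. In AS1 against ApoE 5 rose and 9 fell, with Mcoln2 at -1.10 and Mfsd1 at -0.53.

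Of 17 genes that sort enzymes to the lysosome, 8 rose and 2 fell with ApoE against WT plasma. Igf2r, the large mannose 6-phosphate receptor, rose by 0.75, and the adaptor Gga2 rose by 0.79. With AS1 against ApoE plasma 3 rose and 8 fell, with Igf2r at -0.94 and Gnptab, which makes the mannose 6-phosphate tag, at -0.69. With AS2 against ApoE plasma 2 rose and 4 fell, and the sorting receptors Sorl1 (-1.22) and Sort1 (-0.44) led the falls.

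Of the 3 MiT/TFE factors named, Mitf and Tfe3 fell with ApoE plasma and Tfeb did not pass. Mitf fell by 0.75 with ApoE against WT plasma and rose by 0.42 and 1.003 with AS1 and AS2 plasma against ApoE. Tfe3 fell by 0.43 with ApoE plasma, rose by 0.28 with AS1 plasma and changed by 0.10 with AS2 plasma against ApoE, which did not pass (adjusted p = 0.273, limma). Tfeb changed by -0.26 in ApoE against WT (adjusted p = 0.0967), by -0.06 in AS1 against ApoE (0.824) and by 0.15 in AS2 against ApoE (0.368), and passed in none of these. These are RNA levels, and the location of the proteins was not measured. Of the 19 genes listed for these factors and for mTORC1 at the lysosome, 5 rose and 5 fell in ApoE against WT, 3 and 6 in AS1 against ApoE, and 2 and 6 in AS2 against ApoE. Fnip2, a partner of folliculin, rose by 1.07 with ApoE plasma and fell by 0.61 with AS1 plasma against it. The Rag GTPase gene Rragd fell by 1.38 with AS1 and folliculin (Flcn) by 0.54 with AS2 plasma against ApoE.

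Of 20 autophagy genes, 3 rose and 3 fell in ApoE against WT, 4 and 1 in AS1 against ApoE, and 1 and 5 in AS2 against ApoE. In ApoE against WT these counts did not stand out from the 14.5% and 14.2% of rows with low means left out. The initiating kinase Ulk1 fell by 0.79 with ApoE plasma and rose by 1.05 with AS1 plasma against it, the opposite order to Sqstm1. Atg7, which activates ubiquitin-like proteins, was 0.36 higher in ApoE against WT and fell by 0.39 in AS2 against ApoE. The receptor Calcoco1 rose by 0.35 in AS1 against ApoE, and Gabarap fell by 0.25 in AS2 against ApoE.

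Of 7 inhibitors of cysteine cathepsins, Cst3 (cystatin C) fell by 0.59 with ApoE against WT plasma and rose by 0.51 with AS1 and 0.47 with AS2 plasma against ApoE. Stfa2l1, one of several close copies of stefin A whose signals a probe set may mix, rose by 2.38 in AS1 against ApoE, where 3 of the 7 rose and 1 fell. Stefin A genes are also found in neutrophil precursors, whose markers rose in the same arrays, and the part of those cells was not tested.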

How the data were processed

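The authors deposited log2 intensities, 1 value per probe set and array, in the series' value table; they were made by RMA (background correction, quantile normalisation and summarisation) per the submitters' processing notes, its version was not given in the sources used here, nor was the definition of probe sets. RMA gives arrays nearly the same distribution of values: 17 arrays share 1 set of sorted values and ApoE replicate 1 differs from it by 0.0019 at most, so total RNA differences between cultures are not visible. The number of arrays limits precision, and levels of different probe sets are not comparable.

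Rows were named through the platform annotation, where 24705 of 25428 rows have 1 symbol and 723 are not listed. One model with 4 group means was fitted to all 18 arrays on these rows (limma 3.58.1, R 4.3.3, lmFit and eBayes, two-sided, 14 residual degrees of freedom), with Benjamini-Hochberg adjustment over the rows and a threshold of 0.05. No level filter was used; leaving out rows under the 40th percentile of mean level was an alternative, with renewed quantile normalisation, median centring, array weights, a trended robust variance, the 2 compared groups alone, a block for replicate number, and leaving out single arrays. The fit was tested on simulated data. The left-out pair of ApoE replicates 2 and 5 was chosen after seeing the data.

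Per-array values are given for up to 4 genes in each direction with the smallest p past the threshold in the 3 comparisons of ApoE with WT and of AS1 and AS2 with ApoE, and up to 2 in the others; from each other list, up to 2 genes in each of the first 3. Tfeb, Tfe3, Mitf and Cst3 are named always. Mcoln1, Sgsh, Gla in ApoE against WT and the promoters shown were chosen after their values were seen. The 39 genes, their roles and all lists were chosen with earlier results of these data known. Of 244 list genes 230 were measured, 2 of them listed here under an older symbol than the platform's. Promoters came from RefSeq (GRCm38.p6); Asah1, Ctsb, Ctsh and Npc1 had no match.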

Additional observations from a re-analysis of the deposited data

Results flagged for a closer look

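In each group of 4 or more arrays, the highest or lowest array was flagged where its gap to the nearest other array took up more of the group's range than Dixon's 95% limit allows. Of 117 groups tested (39 genes in WT, ApoE and AS2), 12 were flagged, and about 1 in 20, or 5.85, would be by chance. In the WT group these were Laptm4a in replicate 3, low at 10.39, and Npc2 at 11.52, Gla at 9.83 and Psap at 13.33, all high in replicate 2. In the ApoE group Lamp1 was high in replicate 1 (12.73), Gpnmb low in replicate 5 (13.11), Smpd1 low in replicate 2 (6.36), Psap high in replicate 1 (13.21, where the other 4 arrays hold 1 value that also rounds to 13.21), Ids low in replicate 2 (7.88) and Ctsb high in replicate 4 (13.65). In the AS2 group Ctsb was low in replicate 3 (13.42) and Ctsh low in replicate 5 (9.84). The gaps of Gla in WT and of Psap in ApoE are below 0.05 on the log2 scale, and the other arrays of each group nearly coincide. The flags of Gpnmb, Psap and Ctsb fall on genes at the bright end, where values come in coarse steps.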

How the results depend on the processing

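Of 234 changes tested (39 genes in 6 comparisons), 102 passed the threshold; 78 of these passed under every alternative run, 24 lost the call under at least 1, and 30 others passed under at least 1. None of the 4329 alternative values reversed a called change. With arrays left out one at a time, rises numbered 12 to 16 and falls 3 to 5 in ApoE against WT, 3 to 5 and 9 to 15 in AS1 against ApoE, 6 to 7 and 14 to 18 in AS2 against ApoE, 1 to 4 and 4 to 5 in AS1 against WT, 11 to 12 and 7 to 9 in AS2 against WT, and 8 to 10 and 6 to 8 in AS2 against AS1. A fit of the 2 compared groups alone left 3 rises in AS1 against ApoE, on fewer arrays.

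With replicate number as a block, 15 genes rose and 3 fell in ApoE against WT, 4 and 12 in AS1 against ApoE, 6 and 16 in AS2 against ApoE, 4 and 4 in AS1 against WT, 10 and 6 in AS2 against WT and 8 and 8 in AS2 against AS1. Arrays of the same number did not deviate together: over 22 same-numbered pairs the correlation of deviations ran from -0.21 to 0.13, and 1 of 18 arrays correlated best with its own number, so the numbers were not taken as pairs. Limits: groups are of 3 to 6 arrays, intensities of the brightest genes are coarse, RMA removes differences in total RNA, and marker genes of other cells moved with the plasma groups.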

Other observations

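Within the ApoE group, replicates 1 and 2 lay on one side of replicates 3 to 5 for several genes, chosen here after their values were seen and with no test. Lamp2, which forms the lysosomal membrane and takes part in chaperone-mediated autophagy, read 11.39, 11.40, 11.14, 11.15 and 11.17 in replicates 1 to 5, and the ceramide-splitting Asah1 read 11.31, 11.29, 11.11, 11.12 and 11.16. In both, replicates 1 and 2 were the highest of all 18 arrays. In the opposite sense, replicates 1 and 2 were the lowest of the 18 for Cln3 and Laptm5, whose values stand in the report. For Cd63, a tetraspanin of late endosomes, which read 9.17, 9.03, 8.83, 8.996 and 8.94, replicates 1 and 2 were the highest of the 5 ApoE arrays, replicate 2 by a few hundredths.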
